A study of Mus musculus with 6 samples.

Results

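The 39 genes described encode Polycomb repressive complex 1 (PRC1), trithorax and DNA methylation machinery of the mouse. They were chosen by name: 16 PRC1 subunits of the RING, PCGF, CBX and PHC types, 2 subunits of variant PRC1, 1 demethylase of the mark of Polycomb repressive complex 2 (PRC2), 3 members of the Polycomb deubiquitinase, 8 trithorax genes, 7 enzymes and cofactors of DNA methylation and 2 histone chaperones. Every one of the 39 was measured, among 18194 genes in all. They were read by 95 of 45101 probe sets, counting those to which the array annotation gives 1 symbol alone. Where a gene had several, the brightest on average stands for it.

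Polycomb and trithorax proteins keep developmental genes silent or active through cell division. PRC1 attaches ubiquitin to a histone through the RING proteins, and each PRC1 holds 1 of the PCGF proteins, which decides the form of the complex. CBX and PHC proteins complete the canonical form, which binds the histone mark left by PRC2. Trithorax complexes built around the MLL methyltransferases mark active genes instead. DNA methyltransferases and TET dioxygenases add and oxidise methyl groups on the DNA itself. In the first branchial arch of the mouse, Polycomb silencing of Hox genes is part of how the jaw skeleton forms.

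The samples were first branchial arches, the tissue of the future jaws, from mice at embryonic day 11.5. The 3 labelled-mutant samples were from embryos of the genotype Wnt1Cre Ezh2lox/lox, that is, Ezh2, which encodes the methyltransferase of PRC2, was flanked by lox sites and a Cre transgene named for Wnt1, a gene active where the neural crest arises, was present. The 3 labelled-control samples were from embryos that were Ezh2lox/lox without that transgene, so that both groups carry the lox alleles. The labels give 1 arch for each embryo and do not say whether an array pooled embryos. The purpose was to remove Ezh2 from the neural crest lineage, while the arch also holds mesoderm, epithelium, vessels and blood that do not come from the crest. Values are log2 signals as deposited, and every difference is labelled mutant minus labelled control.

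Some facts of the whole series bear on every value below. The probe set of Ezh2 read 11.66, 11.66 and 11.65 in labelled-mutant arches, against 11.80, 11.52 and 11.56 in labelled-control arches, and where it lies relative to the deleted exons is not known here, so it checks neither label. Hoxa9, a gene that PRC2 is known to silence, read 4.21 ± 0.36 in labelled-mutant and 11.28 ± 0.37 in labelled-control arches (SD, n = 3 each). That order goes against the labels, in a gene chosen after its values were seen, and the groups are therefore called by their labels throughout. Were the labels exchanged, every difference given here would change sign, that of Bmi1 included, and the shares of genes called higher and lower would swap. Xist, the RNA that coats the inactive X chromosome of females, averaged 13.03 in labelled-mutant and 5.62 in labelled-control arches, and the Y-linked genes Kdm5d and Eif2s3y averaged 2.95 and 3.35 in labelled-mutant arches, against 9.18 and 9.09 in labelled-control arches, so that embryo sex and label cannot be told apart in any comparison. All 10 arch mesenchyme markers lay above the array median of 5.81 on every array, and 4 of them rose and 1 fell. Labelled-control array 3 stood apart for 11 of the 95 member probe sets, at over 0.5 from the median of the other arrays, against 2 to 5 on each other array. Over all probe sets it did so for 7.08%, against 2.64% to 5.06%.

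Of the 39 genes, 1 fell and 0 rose in the labelled-mutant arches (limma), while 7 had an unadjusted p under 0.05, 3 of them higher and 4 lower. That gene was Bmi1, the PCGF protein best known for silencing the Cdkn2a locus and so keeping stem and progenitor cells dividing. Across all 18194 genes 5.53% passed the same threshold (limma, Benjamini-Hochberg adjusted p of 0.05), 4.3% lower and 1.23% higher, so that the 2.56% of members called was no larger a share than that of all genes. The background itself rests on single arrays: it was 2.39% without labelled-mutant array 3, 2.64% without labelled-mutant array 2 and 3.03% without labelled-control array 2, and Bmi1 was the member called in each case. The median difference of the members was 0.01, beside 0.02 over all genes, with 22 members above 0 and 17 below.

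**Figure D1:**
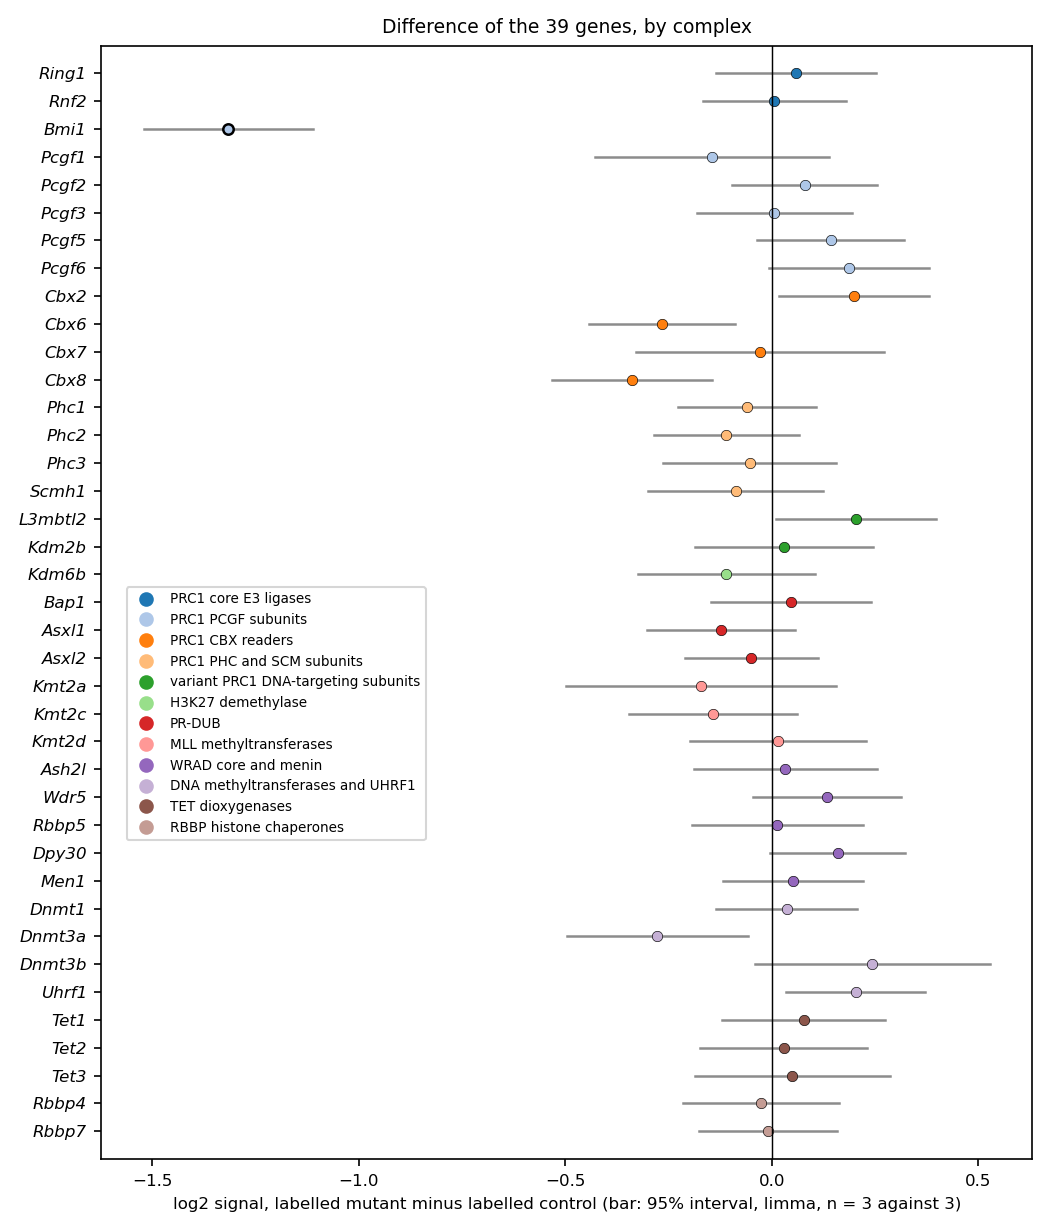
Difference in log2 signal (horizontal axis, labelled mutant minus labelled control) of each of the 39 genes, coloured by complex, with its 95% interval from limma (n = 3 against 3 arrays). Bmi1 lies at -1.32, and the other 38 genes lie between -0.34 and 0.24.

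Bmi1 read 11.00, 10.78 and 11.06 in labelled-mutant arches, against 12.27, 12.26 and 12.26 in labelled-control arches. The groups lay far apart and the controls were nearly identical. The difference was -1.32 with a standard error of 0.09, or 2.49-fold lower (95% interval -1.52 to -1.11; limma, Benjamini-Hochberg adjusted p = 1.25e-04). A further probe set of Bmi1 read 10.38, 10.40 and 10.52 in labelled-mutant arches, against 11.99, 11.88 and 11.66 in labelled-control arches. Its difference of -1.41 also passed in a fit over all probe sets (limma, Benjamini-Hochberg adjusted p = 7.16e-04). These were the 2 member probe sets of 95 that passed, or 2.11%, where 2.14% of all probe sets did. In whole arches, less Bmi1 RNA per cell cannot be told apart from fewer cells that express it.

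The promoter of Bmi1 is shown with that of Pcgf2, its closest relative in the family (also known as Mel-18). The pair was chosen because they share a function in canonical PRC1 and only Bmi1 passed. The signal of Pcgf2 lay near the array median. The sequences are those of RefSeq on GRCm38.p6, from 250 bases before the start of the gene to 50 after it. Bmi1 is read on the plus strand of chr2:18676768-18677067 and Pcgf2 on the minus strand of chr11:97699599-97699898. Capitals mark CACGTG, the E-box that MYC and MAX dimers bind, which reads the same on both strands and holds 1 CpG.
Bmi1: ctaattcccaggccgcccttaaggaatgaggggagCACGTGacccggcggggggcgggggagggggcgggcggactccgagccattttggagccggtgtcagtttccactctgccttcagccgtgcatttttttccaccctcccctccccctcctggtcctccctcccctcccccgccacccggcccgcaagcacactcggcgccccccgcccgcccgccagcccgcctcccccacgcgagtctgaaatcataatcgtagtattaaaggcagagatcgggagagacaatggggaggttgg
Pcgf2: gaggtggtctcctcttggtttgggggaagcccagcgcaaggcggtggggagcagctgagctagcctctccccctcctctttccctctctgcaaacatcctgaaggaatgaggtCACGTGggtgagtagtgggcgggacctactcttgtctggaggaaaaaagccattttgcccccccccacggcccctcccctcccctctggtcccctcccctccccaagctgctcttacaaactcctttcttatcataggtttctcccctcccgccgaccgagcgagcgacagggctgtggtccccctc

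The E-box letters begin 215 bases before the start in Bmi1 and 137 bases before it in Pcgf2. They occur in 7.15% of all 32851 promoter windows and in 10 of the 53 windows of the members, or 18.87%. By symbol, 35 members could be matched to a window. The members with these letters are Asxl2, Bap1, Bmi1, Cbx6, Cbx8, Dnmt3a, Pcgf2, Phc2, Phc3 and Rbbp4. The Bmi1 window holds 23 CpG and the Pcgf2 window 10, beside a median of 27 over the members' windows and 7 over all windows. Since the letters themselves hold a CpG, all windows are not a like background for the members' share. A match is a description of letters and names no bound factor.

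Among the other PCGF genes, none passed. Pcgf2 read 6.12, 6.00 and 6.00 in labelled-mutant arches, against 6.02, 5.95 and 5.91 in labelled-control arches, and the groups overlapped. Its difference was 0.08 (95% interval -0.10 to 0.25), at a signal near the array median of 5.81. A dimmer probe set of Pcgf2 averaged 5.28 in labelled-mutant and 5.26 in labelled-control arches, a difference of 0.02. Pcgf1, the subunit of the BCOR form of PRC1, differed by -0.15 (-0.43 to 0.14). Pcgf3 and Pcgf5, which form related variant complexes, differed by 0.01 (-0.18 to 0.19) and 0.14 (-0.04 to 0.32). Pcgf6, of the E2F6 and MGA form, differed by 0.19 (-0.01 to 0.38; adjusted p = 0.286). Set against the mean of the other 5 within each array, Bmi1 differed by -1.37, a description with no test, since Bmi1 was set apart after its values were seen.

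**Figure D2:**
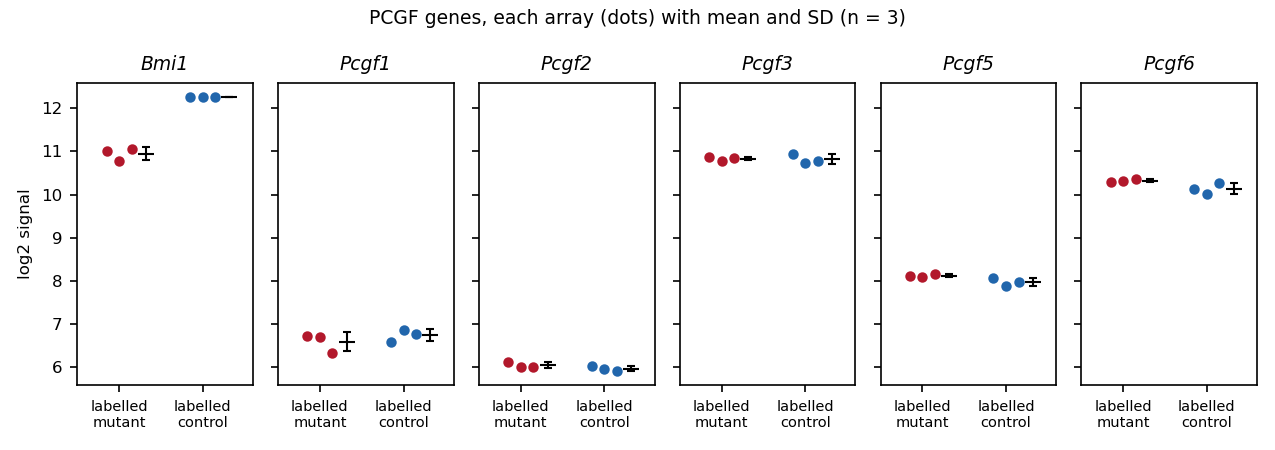
Log2 signal (vertical axis) of the 6 PCGF genes in each array, with mean and SD (n = 3 arrays a group). Only the gap within a panel can be read, since levels of different probe sets are not comparable. The Bmi1 groups are separated by 1.32, while the other 5 genes differ by 0.19 or less.

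The RING proteins, the ubiquitin ligases of every PRC1, did not pass. Ring1 read 7.05, 7.10 and 7.19 in labelled-mutant arches, against 6.96, 7.04 and 7.17 in labelled-control arches. Its difference of 0.06 had a 95% interval of -0.14 to 0.25 (adjusted p = 0.778). Rnf2, the main ligase of the embryo, differed by 0.01 (-0.17 to 0.18). Its groups lay between 11.47 and 11.50 in labelled-mutant arches and between 11.41 and 11.57 in labelled-control arches, and so overlapped fully. Of 5 probe sets of Rnf2, 3 were dim, and their differences were 0.15 to 0.25.

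The CBX proteins read the PRC2 mark. Their differences had both signs, and 0 of 4 passed. Cbx8 read 7.07, 7.12 and 7.05 in labelled-mutant arches, against 7.47, 7.50 and 7.28 in labelled-control arches, with no overlap. Its difference of -0.34 (95% interval -0.53 to -0.14) missed the threshold at adjusted p = 0.0598. Cbx8 passed when dim genes were left out (limma, adjusted p = 0.0472), with array weights (0.0300) and without labelled-control array 3 (0.0265), which had the lowest of the control values. It did not pass under the other 13 alternatives. Its adjusted p was 0.114 with the replicate block, 0.0979 with floored signals, 0.0780 with trend and robust settings and 0.220 without labelled-mutant array 3, and with probe sets averaged the difference shrank to -0.095 (0.596). A dimmer probe set of Cbx8 differed by 0.15, in the other direction. Cbx6 differed by -0.27 (-0.44 to -0.09; adjusted p = 0.101) and Cbx2 by 0.20 (0.02 to 0.38; adjusted p = 0.225), each with groups that did not overlap. The Cbx6 value is that of an _s_at probe set, and its other probe set differed by -0.0093 with overlapping groups. Cbx7, the CBX of stem cells, differed by -0.03 (-0.33 to 0.27) at a mean below the array median.

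The polyhomeotic proteins, which join PRC1 units into larger bodies, and Scmh1, a protein of the same type, showed small negative differences, and 0 of 4 passed. Phc2 read 11.19, 11.17 and 11.14 in labelled-mutant arches, against 11.37, 11.20 and 11.26 in labelled-control arches. The difference was -0.11 (95% interval -0.29 to 0.07; adjusted p = 0.502) although the groups did not overlap. That value is from an _x_at probe set, and the other probe set of Phc2 differed by 0.0067 with overlapping groups. Phc1, Phc3 and Scmh1 differed by -0.06, -0.05 and -0.09. A dim probe set of Scmh1 differed by -0.46, with the 3 labelled-mutant values at 3.72 to 3.86 and the 3 labelled-control values at 3.99 to 4.52. It lay near the low end of the scale and did not pass.

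The 2 subunits that bring variant PRC1 to DNA did not pass. L3mbtl2, of the PCGF6 complex, read 7.27, 7.43 and 7.37 in labelled-mutant arches, against 7.22, 7.04 and 7.19 in labelled-control arches, all of them lower. The difference of 0.20 (95% interval 0.01 to 0.40) had an adjusted p of 0.241. Kdm2b, whose zinc finger binds unmethylated CpG, differed by 0.03 (-0.19 to 0.25).

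The 4 members that undo Polycomb marks showed no call. Kdm6b, which removes the methyl mark of PRC2, read 10.28, 10.29 and 10.25 in labelled-mutant arches, against 10.41, 10.53 and 10.21 in labelled-control arches, and the groups overlapped. Its difference was -0.11 (95% interval -0.32 to 0.10; adjusted p = 0.594), whereas a further probe set differed by 0.39. There labelled-control array 3 read 8.70 and the other controls 9.37 and 9.51. In the Polycomb deubiquitinase, which removes the ubiquitin placed by PRC1, the activating subunit Asxl1 read 10.96, 10.91 and 10.97 in labelled-mutant arches, against 11.18, 11.01 and 11.02 in labelled-control arches. The groups did not overlap, and the difference was -0.12 (-0.30 to 0.06; adjusted p = 0.458). The catalytic subunit Bap1 differed by 0.05 (-0.15 to 0.24) and Asxl2 by -0.05 (-0.21 to 0.11).

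No trithorax gene passed among the 8 members. Kmt2c, an MLL methyltransferase of enhancers, read 9.79, 9.64 and 9.77 in labelled-mutant arches, against 9.91, 9.74 and 9.98 in labelled-control arches. Its difference was -0.14 (95% interval -0.34 to 0.06; adjusted p = 0.450). The dimmer probe sets of Kmt2c differed the other way, by 0.02 to 0.13. Kmt2a, which keeps Hox genes active, differed by -0.17 with the widest interval of the 39 (-0.50 to 0.16). Labelled-control array 3 read 9.15 and the other controls 8.55 and 8.79. A dimmer probe set of Kmt2a differed by 0.16, in the other direction. Kmt2d, the other enhancer enzyme, differed by 0.02. Dpy30, a small subunit shared by all MLL complexes, read 11.70, 11.77 and 11.79 in labelled-mutant arches, against 11.56, 11.62 and 11.60 in labelled-control arches, with no overlap. The difference of 0.16 (-0.003 to 0.32) did not pass (adjusted p = 0.277). The other core subunits Wdr5, Rbbp5 and Ash2l differed by 0.13, 0.01 and 0.03, and menin (Men1), which tethers MLL, by 0.05.

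DNA methylation genes gave 0 calls among 7. Dnmt3a, a methyltransferase that sets new methylation, read 10.28, 10.06 and 10.26 in labelled-mutant arches, against 10.59, 10.49 and 10.35 in labelled-control arches, with no overlap. Its difference was -0.28 (95% interval -0.50 to -0.06; adjusted p = 0.163). All 5 probe sets of Dnmt3a lay below 0, and 1 of them reached -0.45 (adjusted p = 0.0625 over all probe sets). That probe set passed with the trend and robust settings of limma (adjusted p = 0.0411). Dnmt3b, the enzyme of the same function in the early embryo, differed by 0.24 (-0.04 to 0.53) with overlapping groups. Uhrf1, which guides the maintenance enzyme to newly copied DNA, read 12.03, 12.06 and 11.94 in labelled-mutant arches, against 11.82, 11.77 and 11.83 in labelled-control arches. It did not overlap either, at a difference of 0.20 (0.04 to 0.37; adjusted p = 0.180). Dnmt1, the maintenance enzyme itself, differed by 0.04 (-0.13 to 0.21).

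The TET dioxygenases, which start the removal of DNA methylation, gave 0 calls among 3. Tet1 read 8.83, 8.87 and 8.85 in labelled-mutant arches, against 8.74, 8.65 and 8.92 in labelled-control arches, a difference of 0.08 (95% interval -0.12 to 0.28; adjusted p = 0.697). Tet2 and Tet3 differed by 0.03 and 0.05. For Tet3 this came from a single dim probe set with a mean below the array median.

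The histone chaperones Rbbp4 and Rbbp7, which serve PRC2 and several other complexes, did not pass. Rbbp4 read 13.54, 13.45 and 13.50 in labelled-mutant arches, against 13.64, 13.51 and 13.42 in labelled-control arches (difference -0.03, 95% interval -0.22 to 0.16, adjusted p = 0.909). Its other 3 probe sets differed by 0.37 to 0.50, none of them called. On labelled-control array 3 those probe sets read 10.74, 8.37 and 7.66, whereas the other controls read at least 12.39, 9.95 and 9.14. Rbbp7 is the 1 X-linked member, and it differed by -0.01 (-0.18 to 0.16) between groups with opposite sex patterns.

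**Figure D3:**
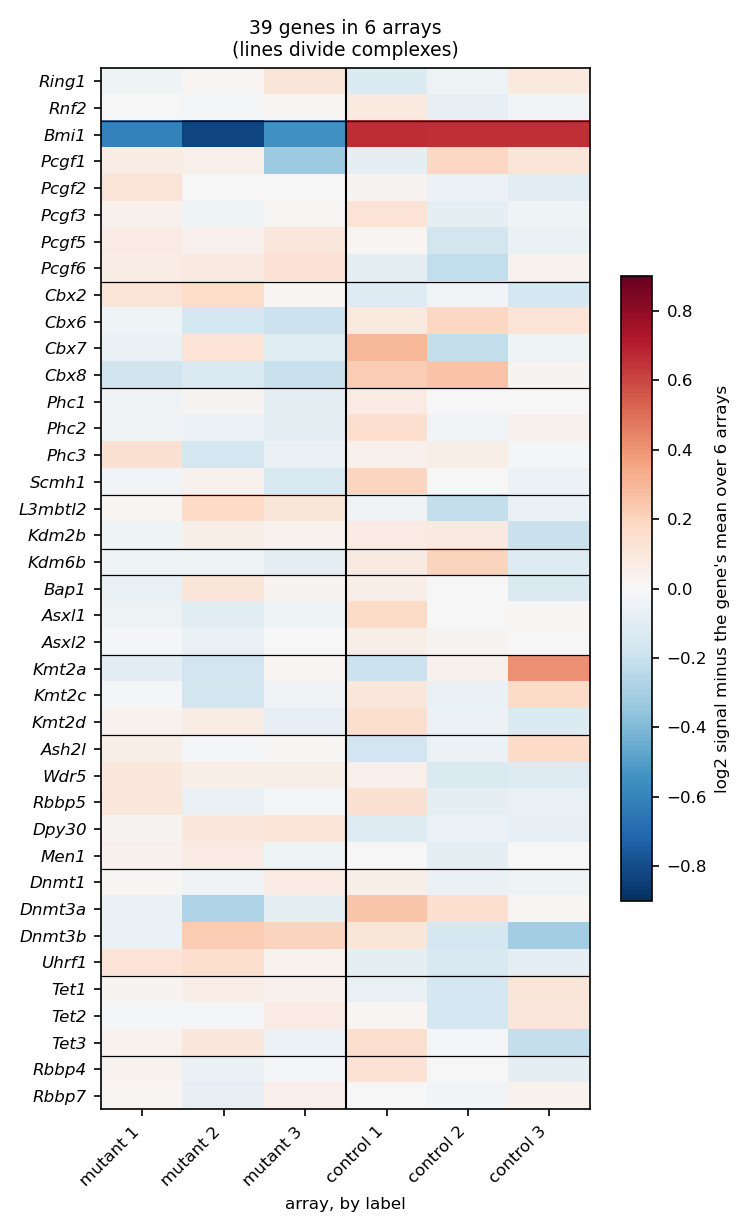
Log2 signal of the 39 genes (rows, lines between complexes) on the 6 arrays (columns), minus each gene's mean over the 6 arrays. Bmi1 is low on the 3 labelled-mutant arrays and high on the 3 labelled-control arrays. Labelled-control array 3 is the highest of the row for Kmt2a and the lowest for Dnmt3b.

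For the 38 genes that did not pass, the intervals bound how large a difference could have been missed at the brightest probe set of each. In 36 of them the 95% interval lay within 0.5 of 0 on the log2 scale, and the exceptions were Cbx8 and Dnmt3b. Dimmer probe sets of some of the 36 genes had intervals that reached further. Examples are -0.44 to 1.44 for Rbbp4, -0.06 to 0.85 for Kdm6b and -0.77 to -0.16 for Scmh1. The difference was under 0.1 in either direction for 21 genes. At an unadjusted p of 0.05, 7 members passed, or 17.9%, against 18.7% of all genes: Bmi1, Cbx8, Cbx6, Dnmt3a and, with higher values in labelled-mutant arches, Uhrf1, Cbx2 and L3mbtl2. Groups did not overlap for 13 members, 7 higher and 6 lower, where 24.9% of all genes did not overlap. For member probe sets it was 23 of 95, beside 20.4% of all probe sets.

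**Figure D4:**
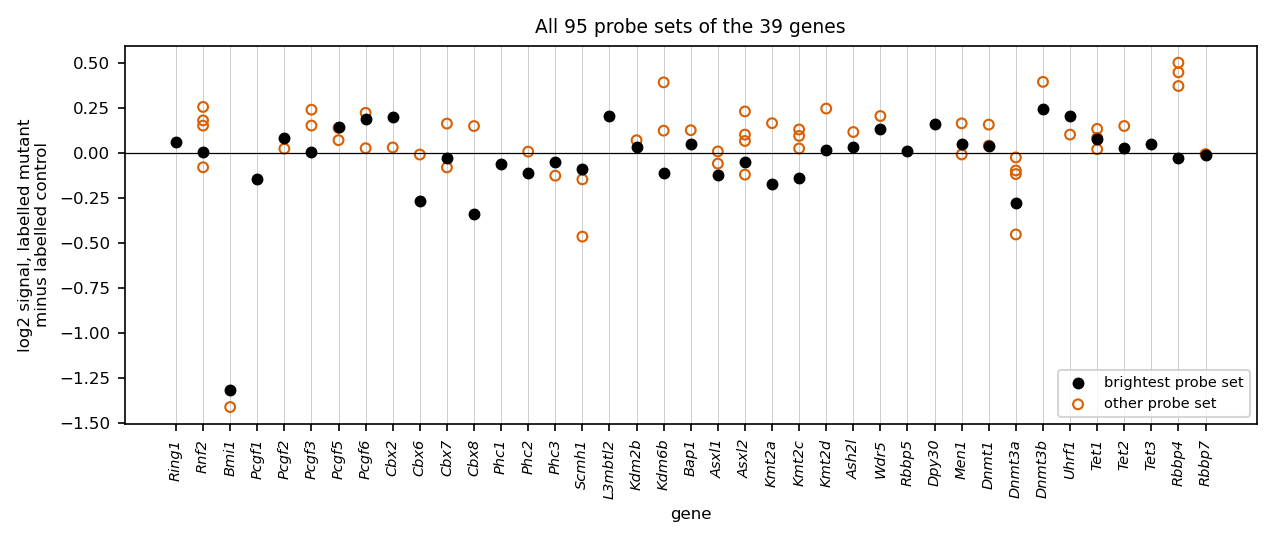
Difference in log2 signal (vertical axis, labelled mutant minus labelled control) of all 95 probe sets of the 39 genes, with the brightest probe set filled. Both Bmi1 probe sets lie below -1.3, all 5 Dnmt3a probe sets lie below 0, and the 4 Rbbp4 probe sets run from -0.03 to 0.50.

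Probe sets of a gene did not always give the same sign. Of the 32 members with more than 1 probe set, 21 had all on one side of 0 and 11 had both signs. The gene-level probe set carries the suffix _x_at for 4 members (Phc2, Kdm6b, Dnmt1 and Rbbp4) and _s_at for 2 (Cbx6 and Kdm2b), which by the maker's naming can match related transcripts as well. None of these 6 was called.

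Further genes of the same machineries came from a list of names. Of 24 genes measured that were listed with PRC1 and the deubiquitinase, not all of them subunits, 1 fell and 1 rose. Over all genes 5.53% passed. Sfmbt2, an imprinted Polycomb gene with malignant brain tumour repeats, read 5.13, 4.96 and 5.14 in labelled-mutant arches, against 6.51, 6.85 and 6.93 in labelled-control arches, a difference of -1.69 (limma, Benjamini-Hochberg adjusted p = 1.39e-04). A dimmer probe set of it differed by -0.26 and did not pass, and with the mean of both the difference was -0.97. Max, the partner of MYC and of MGA in the PCGF6 complex, read 7.12, 7.21 and 7.17 in labelled-mutant arches, against 6.61, 6.49 and 6.66 in labelled-control arches, a rise of 0.58 (limma, adjusted p = 0.0043). Neither pair of groups overlapped.

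Of 21 other trithorax genes measured, 1 rose and 1 fell, both of them sex-linked, where 5.53% of all genes passed. Kdm6a, the X-linked demethylase of the PRC2 mark that escapes X inactivation, read 9.84, 10.06 and 9.98 in labelled-mutant arches, against 9.54, 9.37 and 9.59 in labelled-control arches (difference 0.46; limma, adjusted p = 0.0246). It missed the threshold without labelled-mutant arrays 2 (0.116) or 3 (0.112) and without labelled-control array 2 (0.0835). Uty, its Y-linked counterpart, averaged 3.23 in labelled-mutant and 8.18 in labelled-control arches, so both follow the sex pattern. Of 18 other DNA methylation genes 0 passed with limma, 1 of them at an unadjusted p of 0.05, which 18.7% of all genes reached. Of 11 proliferation genes 0 passed, also with 1 at an unadjusted p of 0.05, and their summed linear signal was 56200 to 58500 in labelled-mutant and 52900 to 58000 in labelled-control arches.

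Markers of the arch mesenchyme and of some other cell types also differed between the groups, in both directions, where 5.53% of all genes passed. Of the 10 arch mesenchyme markers, Msx1, Dlx5, Hand2 and Lhx8 rose and Pdgfra fell, and the summed linear signal was 22100 to 23900 in labelled-mutant and 20300 to 22600 in labelled-control arches. The summed linear signal of 8 neuronal markers was 1340 to 1710 in labelled-mutant and 2160 to 2650 in labelled-control arches, and 4 of the 8 fell. On every array 6 of them lay above the array median. A linear sum weighs the brightest gene most, here on average Gap43, which differed by 0.25 and did not pass. For 7 muscle markers the sum was 745 to 1500 and 1760 to 2590 in the same order, with 3 of 7 lower. For 3 glial and crest markers it was 453 to 543 and 618 to 871, with 1 lower, and the brightest, Erbb3, did not pass. Of 8 macrophage and leukocyte markers 1 fell (973 to 1220 against 1130 to 1600), and of 7 erythroid markers 1 fell (51900 to 56700 against 55000 to 65200). None of 6 endothelial markers passed with limma, also at an unadjusted p of 0.05 (1630 to 1760 against 1470 to 1930), and 1 of 7 epithelial markers rose (4480 to 4560 against 3690 to 5610). Their part in the difference of Bmi1 was not tested.

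Cdkn2a, the locus that Bmi1 is best known to silence, read 3.82, 3.96 and 3.57 in labelled-mutant arches, against 7.32, 7.24 and 6.41 in labelled-control arches. The labelled-mutant values of Cdkn2a lay below 4.325, the 25th percentile of signal, and so at the dim end of the scale. Bmi1 and Cdkn2a were both low on the same 3 arrays, and any link between them was not tested. Cdkn2a was picked for its known relation to Bmi1 after its values were seen.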

How the data were processed

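Biotin-labelled total RNA of 6 samples of arch tissue was hybridised to 1-colour oligonucleotide arrays, per the labels' protocols. The authors deposited 1 log2 value per probe set and array. The scale is inferred from the values (2.63 to 14.68 over the 6 arrays). Quantile normalization on top left the calls at 1007 genes and the Bmi1 difference at -1.32. The arrays thus share nearly the same distribution, so a general shift cannot be seen. For software, background correction and build, the labels used here name none. The number of arrays limits the precision.

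Probe sets with 1 symbol (34958) were reduced to the brightest per gene. Differences were fitted with limma 3.58.1 (R 4.3.3; lmFit and eBayes, no covariates, two-sided) over 18194 genes, and again over all 45101 probe sets, with Benjamini-Hochberg adjustment and a threshold of 0.05. Adjusted p-values throughout are limma's, intervals are its moderated 95% intervals, and no dim gene was left out. The fit was tested on simulated data. Members, lists and tests were chosen with earlier results of these data known. Named in full are members past the threshold and, per complex, the member with the largest absolute moderated t, and of the other pathway lists the genes past the threshold. Pcgf2 and Uhrf1 were given array by array outside that rule, after their values were seen. Alternatives were a replicate block, 2 normalizations, a floor, a filter on dim genes, trend and robust settings, array weights, other choices of probe set, autosomal genes alone and leaving out each array. RefSeq gene order and promoters are those of GRCm38.p6.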

Additional observations from a re-analysis of the deposited data

How the results depend on the processing

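Bmi1 passed under all 16 alternatives, with differences of -1.37 to -1.23 and limma's Benjamini-Hochberg adjusted p of 1.16e-05 to 0.0100. No member was higher past the threshold in any of them. The number of members lower past it was 2 with dim genes left out and with array weights, and 1 to 2 when single arrays were left out, the second gene being Cbx8 each time. Calls over all genes numbered 1007, against 657 with the replicate block, 329 with floored signals, 1300 with array weights and 435 to 1021 when single arrays were left out. Same-numbered arrays deviated from their group means with correlations of -0.21, -0.12 and -0.07. These values show no positive link by number, but they cannot exclude that same-numbered embryos were paired. Under the block Kdm6a, Skida1 and Dnajc1 missed the threshold, and Kdm6a, Commd3, Dnajc1 and Skida1 did with floored signals. With probe sets averaged per gene, Dnajc1 and Skida1 missed it too. The cause was not tested.

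Among 621 recomputed member differences 33 changed sign, in 17 genes, none of them called. With array weights these were Cbx7 (0.026) and Rbbp7 (0.0025). With averaged probe sets they were Cbx7 (0.018), Kdm6b (0.13), Asxl2 (0.045), Kmt2c (0.027) and Rbbp4 (0.32). With _s_at and _x_at probe sets left out, an alternative chosen after seeing the data, they were Phc2 (0.0067), Kdm6b (0.39) and Rbbp4 (0.50). Leaving out single arrays gave ranges of -0.037 to 0.068 for Pcgf3, -0.036 to 0.084 for Rbbp5, -0.14 to 0.014 for Phc3, -0.043 to 0.095 for Kmt2d, -0.035 to 0.025 for Rbbp7, -0.14 to 0.11 for Cbx7, -0.045 to 0.086 for Tet2, -0.043 to 0.13 for Ash2l, -0.078 to 0.032 for Rbbp4, -0.028 to 0.052 for Rnf2, -0.062 to 0.078 for Kdm2b, -0.0083 to 0.09 for Bap1 and -0.043 to 0.14 for Tet3. Ezh2 ranged from -0.023 to 0.12. These genes have no settled direction here.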

Other observations

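Commd3, the gene next to Bmi1 among the genes tested on chromosome 2 and a member of the COMMD family of endosomal sorting proteins, also fell. It read 10.51, 10.23 and 10.27 in labelled-mutant arches, against 10.93, 11.29 and 11.34 in labelled-control arches, which is -0.85 (SE 0.13) and passed with limma (Benjamini-Hochberg adjusted p = 0.0066). A further probe set of Commd3 read 9.85, 9.84 and 9.77 in labelled-mutant arches, against 10.52, 10.74 and 10.80 in labelled-control arches, and its difference of -0.87 passed as well (adjusted p = 0.0048 over all probe sets). The call held without each array in turn, and was lost with floored signals (adjusted p = 0.0722).

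Of the 5 nearest tested genes on each side of Bmi1, 3 of 10 passed, beside 5.53% of all genes, and they went in different directions. Besides Commd3, Skida1 differed by -0.41 (adjusted p = 0.0220) and Dnajc1 by 0.42 (0.0395). Skida1 missed the threshold without labelled-mutant array 1 (0.0737), labelled-mutant array 3 (0.121) or labelled-control array 2 (0.0681). Dnajc1 missed it without labelled-mutant arrays 1 (0.108), 2 (0.135) or 3 (0.151) and without labelled-control arrays 2 (0.104) or 3 (0.0648). Mllt10, which lies between them, differed by 0.03, and Spag6, the nearest tested gene on the other side, by -0.05 at a dim signal. These neighbours were looked up after the values of Bmi1 were seen.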
